A study of Mus musculus with 30 samples.

Results

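The 9 genes described here encode AMP-activated protein kinase (AMPK) and its upstream kinases. They were listed by name, not by any measured value: *Prkaa1* and *Prkaa2* for the catalytic subunits, *Prkab1* and *Prkab2* for the scaffold subunits, *Prkag1*, *Prkag2* and *Prkag3* for the regulatory subunits, and *Stk11* and *Camkk2* for the kinases that activate the complex. All 9 were found in both count tables, among 49671 genes for the peptide study and 55263 for the antibody study. RNA was from the left ventricle of 30 male wild type C57BL6J mice, 1 library per heart. In the peptide study, mice were given recombinant human Aβ42 (7 hearts, group Ab42) or a peptide of scrambled sequence, ScrAβ42 (7 hearts, group ScrAb42). The peptide was given by daily intraperitoneal injection for 4 weeks, from 12 weeks of age by the labels. The study's methods give a range of starting ages whose upper end is 12 weeks. In the antibody study, mice were given 3D6 (8 hearts), an antibody that neutralises Aβ, or a control antibody (8 hearts), in a study that also began at 12 weeks of age, and were fasted before tissue was taken. The dose of peptide is 1 mg per day in the labels and is given in micrograms in the study's methods. The labels state that the mice of the antibody study received Aβ42, whereas the methods describe weekly antibody during high-fat feeding. The labels describe a cohort killed after a glucose tolerance test and another killed after echocardiography, and do not say which gave the hearts of the peptide study. The paper refers the profiled hearts to the schematic that opens its figure on cardiac metabolism, without naming a cohort. No label places hearts in a litter, cage or batch, so the p-values measure the spread between hearts as sampled.

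AMPK is a heterotrimer of a catalytic α, a scaffold β and a regulatory γ subunit, and senses cellular energy because AMP and ADP bind the γ subunit in competition with ATP. Full activity requires phosphorylation of the activation loop of α by LKB1 (the product of *Stk11*), which works in a complex with a STRAD and an MO25 protein, or by the calcium-dependent kinase CaMKK2. In heart and skeletal muscle, active AMPK promotes glucose uptake, glycolysis and fatty acid oxidation and restrains anabolic pathways, and inherited variants of *PRKAG2* cause a cardiac glycogen storage syndrome with pre-excitation. These data are of RNA only and do not measure phosphorylation or activity.

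Total counts per heart ran from 4478991 to 6015767 (peptide study) and from 6397192 to 8310478 (antibody study). Cardiomyocyte markers (*Myh6*, *Tnnt2*, *Tnni3*, *Actc1*, *Myl2* and *Ryr2*) were high in every heart, with a sum of 39772 to 79768 CPM. Markers of the atrium (*Sln*, *Myl7*, *Myl4*, *Bmp10* and *Mybphl*), which the ventricle should hold at low levels, summed to between 12.4 and 8417 CPM in the Ab42 hearts, 3.82 and 3665 in ScrAb42, 1.06 and 670 in 3D6 and 0.825 and 2785 in the control antibody hearts. Hearts of 1 study thus differed in atrial marker level by orders of magnitude. In 4 Ab42, 1 ScrAb42 and 1 control antibody heart the sum was over 1000 CPM. The source of these levels, in RNA described as left ventricle, was not tested. In the antibody study, the share of nuclear gene counts on genes longer than 5000 bases was between 20.1 and 21.7% in 4 hearts and between 15.4 and 17.9% in the other 12, and in the peptide study it was between 21.7 and 23.7% in all hearts. In these bulk samples, fewer cells of a type and less RNA per cell cannot be told apart.

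The first question was which isoform of each subunit predominated in these hearts. Counts were expressed as CPM (relative to library size, scaled by TMM) and divided by the length of the gene's transcripts in kilobases, so that genes of different length could be compared. *Stk11* was the highest of the 9 genes per kb in every heart, with 66.1 ± 5.35 CPM per kb (SD, n = 14) in peptide hearts and 49.8 ± 7.53 (SD, n = 16) in antibody hearts. This order depended on the length in the antibody study, where by total exon length *Stk11* had a mean of 22.7 and *Prkag1* 26.7 CPM per kb. *Prkag3*, the γ3 subunit best known from glycolytic skeletal muscle, was the lowest in every heart, at 0.846 ± 0.275 (SD, n = 14) and 1.07 ± 0.450 (SD, n = 16) CPM per kb, from 6 to 23 and from 10 to 37 counts per heart. By total exon length, the antibody mean of *Prkag3* was 0.807 and that of *Camkk2* 0.789 CPM per kb, so this place also depended on the length. In the peptide hearts, 8 markers of fast skeletal muscle summed to between 7.54 and 102 CPM, with *Myh4* up to 28.1 and *Atp2a1* up to 43.1 CPM. In the antibody hearts they summed to between 1.10 and 10.8 CPM, with *Myh4* and *Myh1* at 0 in 14 of 16 hearts, *Tnni2* detected in all of them and *Atp2a1* reaching 6.22 CPM. The part of skeletal muscle in the *Prkag3* level was not tested.

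**Figure D1:**
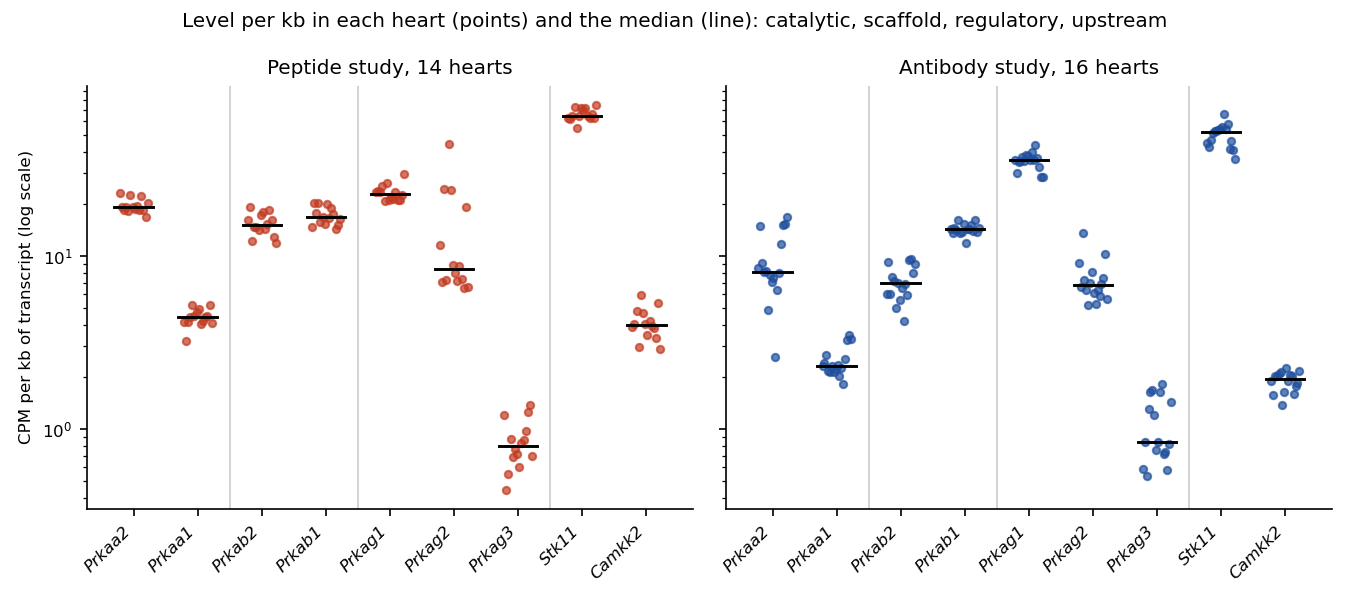
CPM per kb of transcript (log scale) of the 9 genes in each of the 14 hearts of the peptide study (left) and the 16 of the antibody study (right); points are hearts, black lines are medians, and grey lines separate catalytic, scaffold, regulatory and upstream genes. *Stk11* is highest and *Prkag3* lowest in both panels, and *Prkaa2* lies above *Prkaa1* in every heart.

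Among the catalytic subunits, *Prkaa2*, the α2 isoform that is the main form in striated muscle, was above *Prkaa1* in all 14 and all 16 hearts. Per kb, *Prkaa2* was 81.5 ± 2.61% (SD, n = 14) of the catalytic subunit RNA in peptide hearts and 77.5 ± 7.03% (SD, n = 16) in antibody hearts. The ratio of α2 to α1 ran from 3.22 to 5.94 in peptide hearts and from 1.30 to 6.20 in antibody hearts, so its spread between hearts was wider in the latter. The lowest ratio was that of control antibody mouse 22, which also had the lowest *Prkaa2* of all hearts.

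The scaffold subunits were close to equal per kb in the peptide study, where *Prkab1* (β1) had 17.1 ± 2.02 and *Prkab2* (β2) 15.4 ± 2.28 CPM per kb (SD, n = 14), and *Prkab1* was the higher in 10 of 14 hearts. The share of *Prkab2* was 47.2 ± 4.07% (SD, n = 14). In the antibody study the share of *Prkab2* was 32.7 ± 5.22% (SD, n = 16), and *Prkab1* was the higher in every heart. The studies differed in treatment and, by the study's methods, in diet, and were tabulated separately, so this gap was not tested. With the full exon length of each gene, the share of *Prkab2* was 58.2% in the peptide study, where *Prkab2* was then the higher on average. In the antibody study it was 43.0%, and *Prkab1* stayed the higher on average. By counts without length, the share of *Prkab2* was 69.7% (peptide) and 55.5% (antibody), so the order depended on the length.

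Among the regulatory subunits, *Prkag1* (γ1) was 64.9 ± 13.8% (SD, n = 14) in peptide hearts and 80.8 ± 4.17% (SD, n = 16) in antibody hearts. *Prkag2* (γ2) made up 32.7 ± 14.2% and 16.7 ± 4.62%, and *Prkag3* 2.39 ± 0.961% and 2.47 ± 1.07%, in the same order. In 2 of the 14 peptide hearts, both in the Ab42 group, *Prkag2* exceeded *Prkag1*, with ratios of 2.14 in Abeta42_3457 and 1.05 in Abeta42_3455. This count too depended on the length: by total exon length it was 1 heart and by counts alone 4, and the share of *Prkag1* in the peptide study was then 74.5% and 52.8%. The upstream kinase *Camkk2* was low, at 4.10 ± 0.870 CPM per kb (SD, n = 14) in the peptide study, where it and *Prkaa1* (4.41 ± 0.518) were not separated beyond their spread, since *Prkaa1* was the higher in 8 of 14 hearts. *Camkk2* was 1.90 ± 0.250 CPM per kb (SD, n = 16) in the antibody study, below *Prkaa1* at 2.46 ± 0.488 in 15 of 16 hearts. Other neighbours whose order changed between peptide hearts were *Prkag1* over *Prkaa2* (13 of 14 hearts), *Prkaa2* over *Prkab1* (10 of 14) and *Prkab2* over *Prkag2* (10 of 14). In the antibody hearts they were *Prkab1* over *Prkaa2* (13 of 16), *Prkaa2* over *Prkag2* (11 of 16) and *Prkag2* over *Prkab2* (6 of 16).

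The second question was whether Aβ42 altered the RNA of AMPK or its upstream kinases. With edgeR's quasi-likelihood test and Benjamini-Hochberg adjustment over 11985 genes, 0 of the 9 genes passed an adjusted p of 0.05, as did 0 of all genes tested (0%). DESeq2, another count model, called 12 genes in this study, none of them among the 9. At an unadjusted p under 0.05 there was 1 of the 9, *Prkag2*, against 780 of all genes (6.51%). The median log2 fold change of the 9 was 0.03, beside 0.00154 for all genes tested, with 6 higher and 3 lower in Ab42. The groups overlapped for all 9, a description given without the share over all genes.

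**Figure D2:**
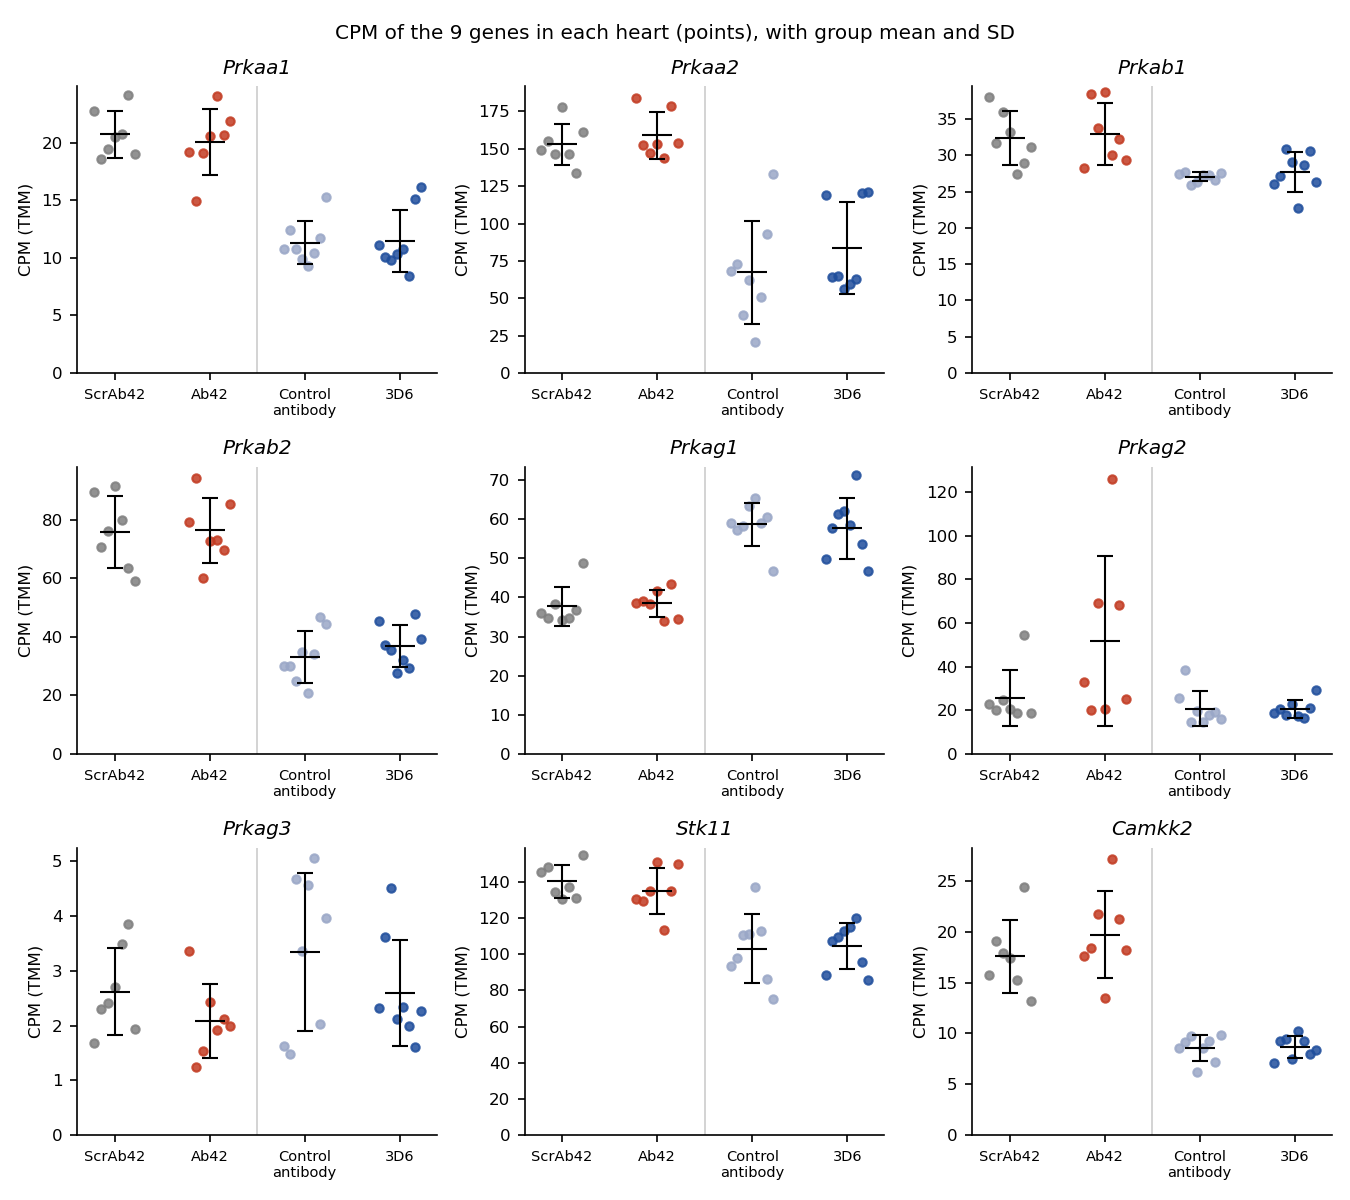
CPM (TMM) of each of the 9 genes in every heart, with the group mean and SD in black; the grey line separates the peptide study (left) from the antibody study (right), which were scaled apart. *Prkag2* reaches 126 CPM in the Ab42 hearts against a highest of 54.6 in ScrAb42, and *Prkaa2* spans 20.9 to 133 CPM in the control antibody hearts.

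The catalytic subunits were alike in the Ab42 and ScrAb42 hearts within their spread. *Prkaa2* (chr4:105029874-105109890, minus strand, GRCm38) had a lowest, median and highest level of 144, 153 and 184 CPM in Ab42 and of 134, 149 and 178 CPM in ScrAb42. The difference had a log2 fold change of 0.06 (SE 0.08, edgeR adjusted p = 0.938). *Prkaa1* (chr15:5143861-5181899, plus strand) had 14.9, 20.6 and 24.04 CPM in Ab42 and 18.6, 20.5 and 24.1 in ScrAb42. *Prkaa1* had a log2 fold change of -0.04 (SE 0.10, edgeR adjusted p = 0.958). In a fit that included a score of the atrial markers, it was -0.15 (SE 0.11), and that of *Prkaa2* was 0.09 (SE 0.09). The highest *Prkaa1* hearts of each group, Abeta42_3457 and ScrAbeta42_3448, were the 2 hearts with the lowest share of mitochondrial counts, 12.9% and 13.8%.

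The scaffold subunits also overlapped. *Prkab1* (chr5:116013586-116024508, minus strand), a β subunit that carries a glycogen-binding module, had 28.2, 32.3 and 38.8 CPM in Ab42 and 27.5, 31.7 and 38.0 CPM in ScrAb42, a log2 fold change of 0.03 (SE 0.09, edgeR adjusted p = 0.969). *Prkab2* (chr3:97658193-97673812, plus strand), its paralog, had 60.0, 72.9 and 94.3 CPM against 59.1, 76.0 and 91.5. *Prkab2* had a log2 fold change of 0.01 (SE 0.11, edgeR adjusted p = 0.991). In the fit that included the atrial marker score, it was 0.17 (SE 0.11), and that of *Prkab1* was 0.14 (SE 0.10). Of the 4 hearts with the highest atrial markers, 3 were among the 4 lowest for *Prkab2* and 1 among those for *Prkab1*.

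The regulatory subunits held the only gene of the 9 with a group difference above 0.5 on the log2 scale. *Prkag1* (chr15:98812797-98831521, minus strand), the widely expressed γ isoform, had 34.1, 38.5 and 43.3 CPM in Ab42 and 34.3, 36.1 and 48.8 CPM in ScrAb42, a log2 fold change of 0.03 (SE 0.09, edgeR adjusted p = 0.966). *Prkag3* (chr1:74738922-74749221, minus strand) had 1.24, 1.98 and 3.36 CPM in Ab42 and 1.67, 2.40 and 3.85 in ScrAb42. At 6 to 23 counts per heart, the log2 fold change of *Prkag3* was -0.34 (SE 0.24, edgeR adjusted p = 0.848).

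*Prkag2* (chr5:24862744-25100642, minus strand), the γ2 isoform, had 33.0 CPM in Abeta42_3451, 20.1 in Abeta42_3452, 69.2 in Abeta42_3455, 20.6 in Abeta42_3456, 126 in Abeta42_3457, 68.2 in Abeta42_3458 and 25.2 in Abeta42_3460. In ScrAb42 it had 22.7 CPM in ScrAbeta42_3441, 20.3 in ScrAbeta42_3442, 24.7 in ScrAbeta42_3443, 20.8 in ScrAbeta42_3445, 18.6 in ScrAbeta42_3447, 54.6 in ScrAbeta42_3448 and 18.8 in ScrAbeta42_3449. Of the ScrAb42 hearts 6 of 7, and of the Ab42 hearts 3 of 7, had at most 25.2 CPM, and the other hearts, 4 Ab42 and 1 ScrAb42, had between 33.0 and 126 CPM. The log2 fold change was 1.01 (SE 0.41, edgeR unadjusted p = 0.0259, adjusted p = 0.712), a 2.01-fold higher mean in Ab42, and 5 of 7 Ab42 hearts were above the ScrAb42 median. The coefficient of variation of *Prkag2* over the 14 hearts was 79.8%, which was higher than that of 97.4% of all genes tested.

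The *Prkag2* level went with that of the atrial markers. The 6 hearts with the highest *Prkag2* (Abeta42_3457, Abeta42_3455, Abeta42_3458, ScrAbeta42_3448, Abeta42_3451 and Abeta42_3460) were the 6 with the highest summed atrial markers, in the same order, from 8417 CPM of atrial markers in Abeta42_3457 down to 158 in Abeta42_3460. In the 3 Ab42 hearts at or under 1000 CPM of atrial markers, *Prkag2* was between 20.1 and 25.2 CPM, and in the 6 such ScrAb42 hearts between 18.6 and 24.7 CPM. In a fit that included the atrial marker score, the log2 fold change was -0.01 (SE 0.23, edgeR unadjusted p = 0.951). Without the 5 hearts over 1000 CPM it was 0.07 (edgeR unadjusted p = 0.591), an alternative chosen after the data were seen. The summed atrial markers had a median of 1158 CPM in Ab42 and 10.5 CPM in ScrAb42. Treatment and atrial marker level therefore cannot be fully told apart in these fits. Other marker lists moved too: fibroblast markers summed to 1428 CPM in Abeta42_3457 and 1590 in ScrAbeta42_3448, the highest of their groups, and smooth muscle and adipose markers to 2189 and 521 in Abeta42_3457. Mesothelial markers were highest in the 3 Ab42 hearts with the highest *Prkag2*, at 135, 105 and 85.6 CPM. Cardiomyocyte markers were lowest in Abeta42_3457, ScrAbeta42_3448 and Abeta42_3455, at 39772, 48688 and 50740 CPM. Their part in the *Prkag2* level was not tested. The antisense genes *Prkag2os1* and *Prkag2os2* overlap *Prkag2*, and how strand was used in counting is not given in the sources used here. Leaving out Abeta42_3457 alone gave 0.61 and leaving out ScrAbeta42_3448 alone gave 1.31.

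**Figure D3:**
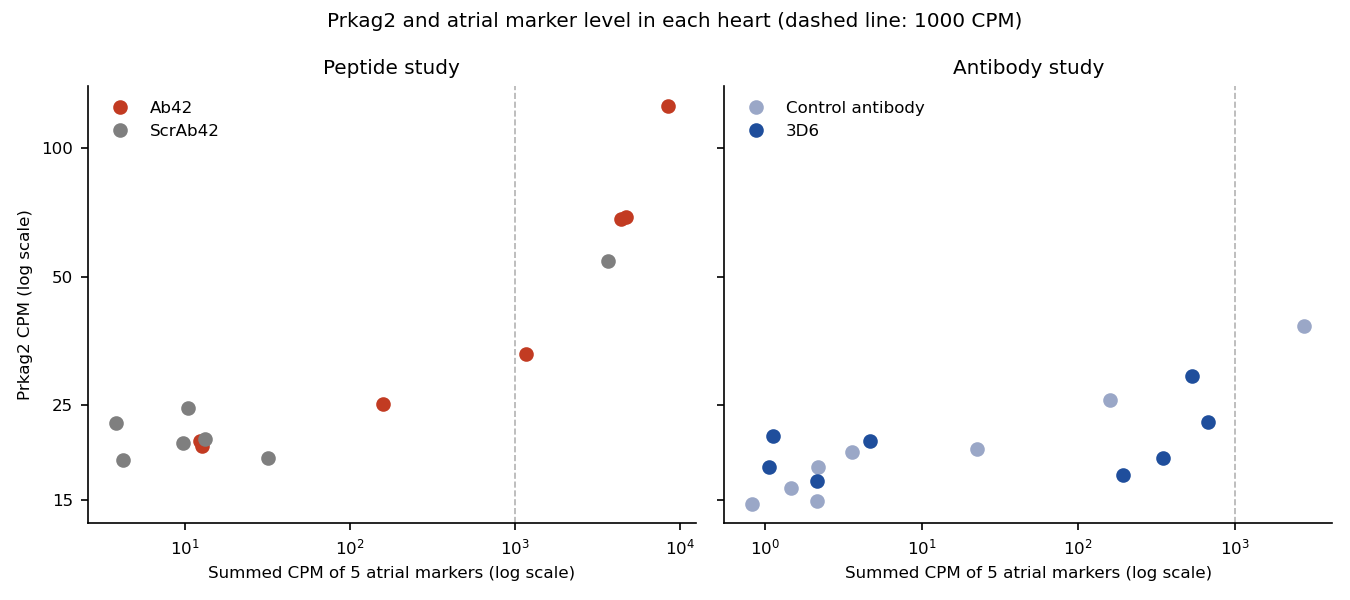
*Prkag2* CPM against the summed CPM of 5 atrial markers in each heart, both on log scales, for the peptide study (left) and the antibody study (right); points are hearts coloured by group, and the dashed line marks 1000 CPM. In the peptide study the 9 hearts left of the line lie between 18.6 and 25.2 CPM of *Prkag2*, and the 5 right of it between 33.0 and 126.

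Genes whose level followed *Prkag2* most closely across the 14 peptide hearts, by Pearson r of log2 CPM after subtraction of group means, were *Creb3l2* (0.985), *Kcnj3* (0.984), *Pam* (0.981), *Tbc1d1* (0.977) and *Rabgap1l* (0.974), of 6322 genes compared. *Kcnj3* encodes a subunit of the acetylcholine-activated potassium channel of the atrium, *Pam* a peptide-amidating enzyme abundant in atrial granules, and *Tbc1d1* a Rab GTPase-activating protein that AMPK phosphorylates. The r of *Nppa*, which encodes atrial natriuretic peptide, was 0.920. Across the 16 antibody hearts the closest were *Pip4k2c* (0.899), *Ndrg4* (0.877), *Tbx5* (0.870), *Pam* (0.855) and *Morf4l2* (0.849), of 6147 genes, with *Nppa* at 0.668, so only *Pam* was among the 5 in both studies. *Prkag2* was added to this comparison after its values were seen, and the r of hearts that share an atrial marker level is a description.

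The γ2 to γ1 ratio per kb had a median of 0.496 in Ab42 and 0.352 in ScrAb42. The mean log2 ratio was -0.68 ± 1.07 (SD, n = 7) in Ab42 and -1.43 ± 0.59 (SD, n = 7) in ScrAb42, a difference of 0.75 by an exact permutation test, two-sided, p = 0.124 and 0.388 after adjustment over the 6 ratio tests. Without Abeta42_3457 alone the difference was 0.45, and without the 5 hearts over 1000 CPM of atrial markers it was 0.04. The α2 to α1 log2 ratio differed by 0.11 (exact permutation test, two-sided, p = 0.426, adjusted 0.649), or by 0.041 without ScrAbeta42_3448 and 0.18 without Abeta42_3457, and the β2 to β1 log2 ratio by -0.01 (exact permutation test, p = 0.937, adjusted 0.937).

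The upstream kinases overlapped between groups as well. *Stk11* (chr10:80115803-80130682, plus strand) had a lowest, median and highest level of 114, 135 and 151 CPM in Ab42 and of 130, 137 and 155 CPM in ScrAb42, a log2 fold change of -0.06 (SE 0.07, edgeR adjusted p = 0.927). It was the least variable of the 9 genes in this study, with a coefficient of variation of 8.10%. *Camkk2* (chr5:122731170-122779409, minus strand) had 13.5, 18.4 and 27.2 CPM in Ab42 and 13.2, 17.4 and 24.5 CPM in ScrAb42, and 6 of 7 Ab42 hearts were above the ScrAb42 median. Its log2 fold change was 0.16 (SE 0.15, edgeR adjusted p = 0.886), and -0.11 (SE 0.12) in the fit that included the atrial marker score. It was 0.065 without Abeta42_3457 and 0.26 without ScrAbeta42_3448. The 4 hearts with the highest *Camkk2* were the same 4 that were highest for the atrial markers, Abeta42_3457, ScrAbeta42_3448, Abeta42_3455 and Abeta42_3458.

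The third question was whether 3D6 altered the same genes. With edgeR's quasi-likelihood test over 12146 genes, 0 of the 9 passed an adjusted p of 0.05, as did 0 of all genes (0%), and DESeq2 called 0 genes. At an unadjusted p under 0.05 there were 0 of the 9, against 444 of all genes (3.66%) by edgeR and 447 by DESeq2. The median log2 fold change of the 9 was 0.02, beside -0.01 for all genes tested, with 6 higher and 3 lower in 3D6. The groups overlapped for all 9 here too, again without the share over all genes.

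*Prkaa2* was the most variable of the 9 in the antibody study, with a coefficient of variation of 43.0%. It had 56.4, 64.5 and 121 CPM in 3D6 and 20.9, 65.1 and 133 CPM in the control antibody hearts as lowest, median and highest. Of the 8 hearts given 3D6, mice 12, 4 and 7 had 119, 120 and 121 CPM, and the other 5 had at most 64.8. Of the controls, mouse 8 had 133 CPM and mouse 3 had 92.8, and the other 6 were between 20.9 and 73.0. Between groups the log2 fold change was 0.31 (SE 0.28, edgeR adjusted p = 0.944), with group medians that lay close together.

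The 4 hearts with the highest *Prkaa2* (control 8 and 3D6 7, 4 and 12) were the 4 with the highest share of counts on genes longer than 5000 bases, of which *Prkaa2*, with 1 annotated transcript of 7969 bases, is itself one. *Prkag1*, whose transcripts average 1641 bases, was lowest in the same 4 hearts, at 46.7, 46.8, 49.7 and 53.6 CPM, against 57.2 to 71.4 in the other 12. *Stk11*, at 2082 bases, was lowest in control 8 (75.5 CPM) and highest in control 22 (137 CPM), which had the lowest *Prkaa2* and the lowest mitochondrial share, 26.0%. *Prkaa1* and *Prkab2* had 3 of these 4 hearts among their own 4 highest, and *Stk11* had 3 among its 4 lowest. *Prkab1* had 1 of the 4 hearts among its 4 highest and 2 among its 4 lowest, *Prkag2* and *Camkk2* each had 1 and 1, and *Prkag3* had 0 and 1. In a fit that included the mitochondrial share, *Prkaa2* had a log2 fold change of 0.03 (SE 0.13), and with the long-gene share, chosen after the data were seen, it was 0.21. Without control mouse 8 it was 0.53 and without control mouse 22 it was 0.18.

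**Figure D4:**
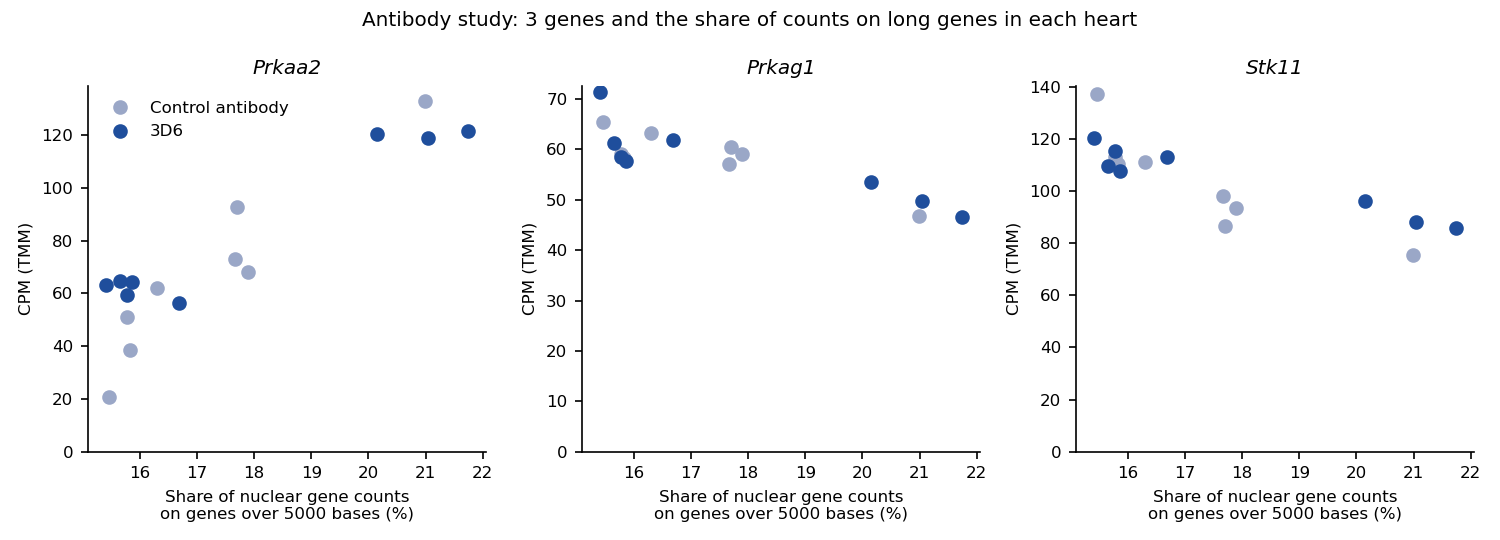
CPM (TMM) of *Prkaa2*, *Prkag1* and *Stk11* in each heart of the antibody study against the share of nuclear gene counts on genes longer than 5000 bases (percent); points are hearts, coloured by antibody. The 4 hearts at 20.1 to 21.7% have the highest *Prkaa2*, 119 to 133 CPM, and the lowest *Prkag1*, 46.7 to 53.6 CPM.

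The genes whose level followed *Prkaa2* most closely across the 16 antibody hearts were *Akap6* (r = 0.991), *Specc1l* (0.991), *Arhgap5* (0.987), *Clec16a* (0.987) and *Cand2* (0.985), of 6147 genes compared. In the 14 peptide hearts they were *Ctnna3* (r = 0.876), *Zfp317* (0.876), *Akap6* (0.869), *Nup50* (0.845) and *1700020I14Rik* (0.838), so *Akap6*, which encodes a scaffold of the cardiomyocyte nuclear envelope that anchors protein kinase A, was among the 5 in both. For *Prkaa1* they were *Ckb* (0.833), *Togaram1* (0.817), *Scfd1* (0.787), *F3* (0.773) and *Ptpra* (0.759) in the peptide study, and *Atf7ip* (0.900), *Atp11a* (0.899), *Naca* (0.899), *Map3k7* (0.893) and *Gfpt1* (0.887) in the antibody study. Hearts of the antibody study share the long-gene gradient described above, and these r are descriptions over 14 or 16 hearts.

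*Prkaa1* had 8.39, 10.5 and 16.2 CPM in 3D6 and 9.29, 10.7 and 15.3 CPM in the controls, a log2 fold change of 0.02 (SE 0.14, edgeR adjusted p = 0.987). *Prkab1* had 22.7, 27.9 and 30.9 CPM in 3D6 and 26.0, 27.3 and 27.7 CPM in the controls. It was the steadiest of the 9 genes here, with a coefficient of variation of 7.04%, and its log2 fold change was 0.03 (SE 0.07, edgeR adjusted p = 0.951). *Prkab2*, whose transcripts average 4950 bases, had 27.7, 36.4 and 47.8 CPM in 3D6 and 20.7, 32.1 and 46.8 CPM in the controls, with 6 of 8 hearts given 3D6 above the control median. Its log2 fold change was 0.15 (SE 0.16, edgeR adjusted p = 0.944), and -0.03 with the mitochondrial share as a covariate.

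*Prkag1* had 46.7, 58.2 and 71.4 CPM in 3D6 and 46.8, 59.0 and 65.5 in the controls (log2 fold change -0.03, SE 0.09, edgeR adjusted p = 0.966). *Prkag2* had 16.6, 19.7 and 29.2 CPM in 3D6 and 14.7, 18.6 and 38.3 CPM in the controls, a log2 fold change of -0.02 (SE 0.18, edgeR adjusted p = 0.989). Its highest heart, control mouse 15, was the one with the highest atrial markers, and 3 of its 4 highest hearts were among the 4 highest for those markers. *Prkag3* had 1.60, 2.30 and 4.52 CPM in 3D6 and 1.49, 3.66 and 5.05 CPM in the controls, a log2 fold change of -0.36 (SE 0.28, edgeR adjusted p = 0.944). *Stk11* had 85.8, 108 and 120 CPM in 3D6 and 75.5, 104 and 137 CPM in the controls (log2 fold change 0.02, SE 0.11, edgeR adjusted p = 0.985). In the fit that included the mitochondrial share it was 0.16 (SE 0.07, edgeR unadjusted p = 0.0460), and with the long-gene share 0.08. *Camkk2* had 7.10, 8.80 and 10.2 CPM in 3D6 and 6.24, 8.89 and 9.84 CPM in the controls, and its log2 fold change was 0.01 (SE 0.11, edgeR adjusted p = 0.998).

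The α2 to α1 log2 ratio was 2.03 ± 0.32 (SD, n = 8) in 3D6 and 1.62 ± 0.64 (SD, n = 8) in the controls, a difference of 0.41 (exact permutation test, two-sided, p = 0.129, adjusted 0.388), and 6 of 8 hearts given 3D6 were above the control median. Without control mouse 22 the difference was 0.23. The β2 to β1 log2 ratio differed by 0.14 (exact permutation test, p = 0.433, adjusted 0.649), or by 0.049 without control mouse 22 and 0.22 without control mouse 3, and the γ2 to γ1 log2 ratio by 0.07 (exact permutation test, p = 0.774, adjusted 0.928).

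**Figure D5:**
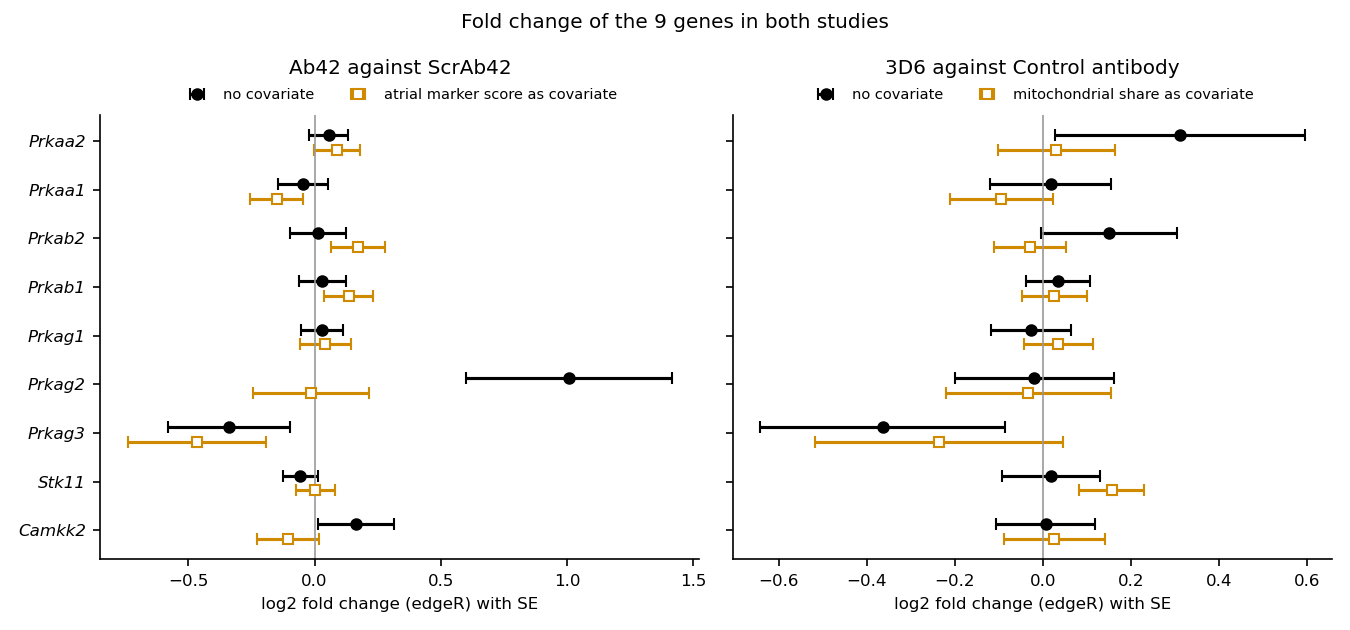
Log2 fold change with SE (edgeR) of the 9 genes for Ab42 against ScrAb42 (left) and 3D6 against the control antibody (right); black points are without a covariate, open squares with the atrial marker score (left) or the mitochondrial share (right) as a covariate. *Prkag2* moves from 1.01 to -0.01 on the left and *Prkaa2* from 0.31 to 0.03 on the right. Atrial marker level itself differed between the peptide groups.

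The table of the antibody study holds transcripts, so the forms of each gene could be described. Of 61 annotated transcripts of the 9 genes, 51 had a count in some heart and 16 had a mean of at least 10 counts and were tested. With edgeR over 20729 transcripts, 0 of the 16 passed an adjusted p of 0.05, as did 0 of all transcripts (0%). At an unadjusted p under 0.05 there was 1 of the 16, *Stk11-201*, against 499 of all transcripts (2.41%) by edgeR. DESeq2 called 10 of all transcripts and gave 718 at an unadjusted p under 0.05. *Stk11-201* had 62.6 CPM in 3D6 and 52.8 CPM in the controls as group means, a log2 fold change of 0.25 (SE 0.09, edgeR unadjusted p = 0.0185, adjusted p = 1.00). *Stk11-202* went the other way, with 19.7 CPM in 3D6 and 30.4 CPM in the controls, a log2 fold change of -0.63 (SE 0.39). Of the 31-base words of *Stk11-201*, 99.7% also occur in other transcripts, and the log2 fold change of the whole gene was 0.02. A shift in the estimated split between forms was not tested.

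*Prkaa2* has a single transcript, and single transcripts took most of *Prkag1* (*Prkag1-201*, 98.7%), *Prkab2* (*Prkab2-201*, 96.8%) and *Camkk2* (*Camkk2-201*, 77.5%). *Stk11* was spread over more forms, with *Stk11-201* at 56.1% and *Stk11-202* at 22.7% of its counts on average. In control mouse 22, *Stk11-202* had 567 counts and *Stk11-201* 271, whereas in the other 15 hearts *Stk11-201* was the higher, and 92.8% of the 31-base words of *Stk11-202* also occur in *Stk11-201*. *Prkaa1-201* and *Prkaa1-202*, which share 99.2% and 100% of their 31-base words, were never both counted in 1 heart, with 14 hearts having the second only and 2 the first only. *Prkag3-204* and *Prkag3-206* have identical sequences and were likewise counted in 7 and 9 hearts. The split of such forms by the estimator therefore carries no measure of their proportions.

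The 3 tested forms of *Prkag2* start at different places on the minus strand of chromosome 5. The first base of *Prkag2-201* is at 25100642, that of *Prkag2-202* lies 104.9 kb downstream and that of *Prkag2-203* lies 192.2 kb downstream. The 150 bases upstream of each RefSeq start are shown, because the estimated counts of this gene divide among forms from these starts. They are given 5′ to 3′ on the gene's strand, from RefSeq on GRCm38.p6, with CG dinucleotides in capitals. The last of these RefSeq starts is that of *Prkag2-210* and lies just upstream of *Prkag2-203*.
Prkag2-201, chr5:25100643-25100792: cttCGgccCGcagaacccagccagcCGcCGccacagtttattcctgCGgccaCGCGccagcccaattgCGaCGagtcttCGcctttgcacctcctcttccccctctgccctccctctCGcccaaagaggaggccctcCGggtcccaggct
Prkag2-202, chr5:24995754-24995903: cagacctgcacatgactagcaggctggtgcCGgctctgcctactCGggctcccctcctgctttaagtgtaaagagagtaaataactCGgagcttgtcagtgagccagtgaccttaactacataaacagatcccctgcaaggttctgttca
Prkag2-210, chr5:24908510-24908659: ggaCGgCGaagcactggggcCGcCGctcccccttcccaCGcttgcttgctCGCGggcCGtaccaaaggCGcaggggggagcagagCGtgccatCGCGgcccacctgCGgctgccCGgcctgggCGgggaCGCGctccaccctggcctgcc

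The stretch before *Prkag2-202* holds 3 CG dinucleotides, and those before *Prkag2-201* and *Prkag2-210* hold 12 and 17. Over the whole window of 300 bases, which runs 250 bases before to 50 after the start, the counts were 6, 25 and 45, against a median of 7 in the 32851 promoter windows of the table. Fewer CG dinucleotides were found in 43.6%, 81.6% and 98.1% of those windows, respectively. The other members' windows held between 11 (*Prkag3*) and 52 (*Prkaa1*). Letters were searched on both strands. The TATA box (TATAAA), present in 13.6% of all windows, was in 0 of the 11 windows of the 9 genes, and a MEF2-type match (CTA and TAG with any 4 bases between), present in 3.69%, was in 0. The GC box (GGGCGG), which itself contains a CG dinucleotide and is present in 35.7% of all windows, was in 8 of the 11, with none in the window of *Prkag2-202*. The T-box core (AGGTGT) was in 1 of the 11, that of *Prkag2-210*, against 13.7% of all windows, and the E-box (CANNTG), which reads the same on both strands, in 6 of the 11 against 72.3%.

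*Prkag2-201*, from the first start, had between 32.5 and 124 estimated counts per heart and took 53.5% of the gene on average. *Prkag2-202*, from the middle start with few CG dinucleotides, had 116 estimated counts in control mouse 15 and 67.0 in 3D6 mouse 7, and between 0 and 39.0 in the other 14 hearts. Control mouse 15 and 3D6 mouse 7 had 2785 and 532 CPM of summed atrial markers, and 1 other heart, 3D6 mouse 20, lay between them at 670 CPM. In control mouse 15, *Prkag2-202* made up 40.9% of the gene, against 15.9% on average. The log2 fold change of *Prkag2-202* between groups was -0.17 (SE 0.73, edgeR adjusted p = 1.00) and that of *Prkag2-201* 0.10 (SE 0.25, edgeR adjusted p = 1.00). Of the 31-base words of *Prkag2-203*, 95.2% also occur in *Prkag2-202*, and of those of *Prkag2-202*, 73.7% occur in *Prkag2-203*. *Prkag2-202* also shares 81.4% of its words with *Prkag2-201*, so its share of the gene depends on how the estimator divided the counts. The table of the peptide study, which is by gene, does not divide *Prkag2*.

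Genes around the pathway were described from 6 lists of 68 genes in all. In the peptide study 65 were tested and 0 passed an adjusted p of 0.05 by edgeR, with 2 at an unadjusted p under 0.05, where the share over all genes was 6.51%. For 3D6, 64 were tested and 0 passed, with 1 at an unadjusted p under 0.05, where the share over all genes was 3.66%. Both counts lie below those shares but are small, and no set test was run. Since none passed, the member of each list with the highest and the lowest log2 fold change in each study is named below.

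Of the 7 genes of the upstream complex, whose products assemble with LKB1 or act on AMPK from above, 4 were higher and 3 lower in Ab42 (median log2 fold change 0.000221). *Cab39l*, which encodes the scaffold MO25β, had 28.1 ± 6.30 CPM (SD, n = 7) in Ab42 and 20.3 ± 3.58 (SD, n = 7) in ScrAb42, and all 7 Ab42 hearts were above the ScrAb42 median. Its log2 fold change was 0.47 (SE 0.14, edgeR unadjusted p = 0.00462, adjusted p = 0.639), 0.24 in the fit with the atrial score and 0.45 without the 5 hearts over 1000 CPM of atrial markers. *Stradb*, which encodes a pseudokinase partner of LKB1, had the lowest, -0.12. With 3D6, 6 were tested, 5 higher and 1 lower (median 0.10), with *Stradb* highest at 0.16 and *Cab39l* lowest at -0.13 (SE 0.10).

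The 20 AMPK substrates included 8 higher and 12 lower in Ab42 (median -0.06) and 13 higher and 7 lower in 3D6 (median 0.08). *Tbc1d1* had the highest log2 fold change in the peptide study, 1.74 (SE 0.68, edgeR unadjusted p = 0.0211, adjusted p = 0.702), with 10.1 to 230 CPM in Ab42 and 11.8 to 75.5 CPM in ScrAb42. Like *Prkag2*, its log2 fold change was near or below 0 in the fits that account for atrial markers, at -0.13 with the score as a covariate and -0.26 without the 5 hearts. *Acacb*, which encodes the acetyl-CoA carboxylase of the mitochondrial surface that AMPK inhibits to permit fatty acid oxidation, had the lowest, -0.20 (SE 0.15). For *Acacb*, 0 of 7 Ab42 hearts were above the ScrAb42 median. Its log2 fold change was 0.03 in the fit with the atrial score, -0.09 without the 5 hearts and -0.30 with the long-gene share as a covariate. With 3D6, *Ppargc1a*, the coactivator of mitochondrial biogenesis, was highest at 0.28 (SE 0.18) and *Tbc1d1* lowest at -0.37 (SE 0.38). *Nos3*, the endothelial nitric oxide synthase, was the gene at an unadjusted p under 0.05. Its log2 fold change was -0.26 (SE 0.12, edgeR unadjusted p = 0.0444, adjusted p = 0.944), with 1 of 8 hearts given 3D6 above the control median. With the mitochondrial share as a covariate, *Nos3* was -0.12, *Ppargc1a* 0.09 and *Tbc1d1* -0.17. Summed endothelial markers had medians of 587 CPM in 3D6 and 648 CPM in the controls, and their part in the *Nos3* level was not tested.

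In the other lists no gene reached an unadjusted p under 0.05 in either study. Of the AMPK-related kinases 11 were tested, with a median of -0.02 in Ab42 and -0.09 in 3D6. *Brsk1* was highest (0.32) and *Nuak1* lowest (-0.21) in Ab42, and *Sik2* was highest (0.15) and *Brsk1* lowest (-0.39) in 3D6. Of the 12 lysosomal and nutrient regulators, *Sesn2* (0.22) and *Fnip2* (-0.22) were the extremes in Ab42 and *Fnip1* (0.20) and *Lamtor2* (-0.17) in 3D6, with medians of 0.01 and -0.01. Of the enzymes of adenine nucleotide balance 9 were tested, with medians of -0.09 and 0.05, and the extremes were *Ak3* (0.06) and *Ckm* (-0.16) in Ab42 and *Nt5c1a* (0.69) and *Ampd2* (-0.20) in 3D6. Of the 6 genes of phosphatases and their regulatory subunits, the extremes in Ab42 were *Ppp1r3c* (0.16) and *Ppm1e* (-0.15). In 3D6 they were *Ppp1r3d* (0.28) and *Ppp2cb* (-0.14), and the medians in Ab42 and 3D6 were 0.02 and 0.00422. *Nt5c1a*, a cytosolic nucleotidase that hydrolyses AMP, had a log2 fold change of 0.11 with the mitochondrial share and 0.08 with the long-gene share as a covariate.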

How the data were processed

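RNA-seq of 30 left ventricles was read from 2 count tables. Per the labels and the study's methods, stranded total RNA libraries were sequenced, and reads were trimmed for quality and quantified by Salmon on GENCODE vM24 (GRCm38). The authors deposited whole-number counts per gene for the peptide study and estimated counts per transcript for the antibody study, neither of them normalized. How the former were summed from transcripts is not given in the sources used here. The peptide table has 1 column that no label names, which was left out.

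Estimated counts of transcripts were summed to genes through GENCODE vM21, which lists 99.2% of them (0.381% of counts were on others), and rounded. Each study was fitted separately in edgeR 4.0.16 (R 4.3.3): genes averaging 10 or more counts per heart, TMM scaling, quasi-likelihood test, two-sided, Benjamini-Hochberg over all genes tested. Transcripts were fitted likewise. Depth per heart is given with the results, and its counting error is part of the spread that edgeR fits. Log2 CPM for correlations used a prior count of 2 and genes averaging 100 or more counts. Transcript length was weighted by use in the antibody study. Ratios were tested by exact permutation (scipy 1.17.1), with 6 tests. The test was also run on simulated counts, and the outcome is not reported here. No pair of hearts of a group agreed within sampling noise (lowest ratio of chi-square to degrees of freedom 3.29), so each was counted as a replicate.

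The members, lists, tests and alternatives were chosen with earlier results of these data known. Named were the 9 members, per list the genes called or else the highest and lowest log2 fold change in each study, and the 5 genes most alike to *Prkaa2* and *Prkaa1*. *Nos3*, at an unadjusted p under 0.05, and the genes most alike to *Prkag2* fall outside this rule and were chosen after their values were seen. Alternatives were DESeq2 1.42.0, limma-voom (limma 3.58.1), other scalings and filters, covariates (that of long genes, and leaving out hearts by atrial markers, added after the data were seen), other lengths, a pseudocount of 0.5, values over 2 SD left out, and each heart left out.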

Additional observations from a re-analysis of the deposited data

Results flagged for a closer look

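In each group, the highest and the lowest heart was compared with the nearest other heart for the 9 genes and the 3 ratios, 48 groups of values in all, and chance alone is expected to mark about 1 in 20. A gap to the nearest heart that was large beside the range of the group (Dixon's criterion) was found for 5 values. *Prkag2* in ScrAbeta42_3448 was 54.6 CPM, where the next heart had 24.7, and its γ2 to γ1 log2 ratio was -0.22, where the next was -1.42. *Prkag2* in control antibody mouse 15 was 38.3 CPM, where the next had 25.7. Both hearts had the highest atrial markers of their group, at 3665 and 2785 CPM, and the part of these in the *Prkag2* level was not tested beyond the fits with and without them. *Prkag1* in ScrAbeta42_3449 was 48.8 CPM, where the next had 38.2, and in control antibody mouse 8 it was 46.8 CPM, the lowest of its group, where the next had 57.2. Mouse 8 had the highest share of counts on long genes of its group, 20.99%. Among the Ab42 hearts, *Prkag2* in Abeta42_3457 was 126 CPM, where the next had 69.2, and this gap was under the limit for 7 hearts.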

How the results depend on the processing

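None of the 9 genes was called under any setting, and the smallest adjusted p of a member was 0.284 (*Prkag2*, peptide study). DESeq2 called 12 genes in the peptide study and 10 transcripts in the antibody study, where edgeR called 0, and the cause was not tested. By counts without length, the share of *Prkaa2* was 88.4% (peptide) and 85.4% (antibody), that of *Prkab2* 69.7% and 55.5%, and that of *Prkag1* 71.1% (antibody). By total exon length, *Prkab2* was 58.2% and 43.0% and *Prkag1* 86.9% (antibody), since these lengths differ. With each transcript divided by its own length, the γ2 to γ1 log2 difference in the antibody study was -0.064. The log2 fold change of *Prkag2* in the peptide study, the largest of the 9, went from 1.01 to -0.014 with the atrial score, and that of *Camkk2* from 0.16 to -0.11. Without the 5 hearts over 1000 CPM of atrial markers, *Prkaa2* (-0.032) and *Stk11* (0.015) crossed 0 in the peptide study. Others that crossed 0 there were *Stk11* 0.0026 (atrial score), *Prkab1* -0.011 and *Prkab2* -0.0083 (long-gene share). In the antibody study they were *Prkaa1* -0.0012 and *Prkag2* 0.030 (limma-voom), *Prkaa1* -0.025, *Prkab1* -0.015, *Stk11* -0.038 and *Camkk2* -0.044 (total count), *Prkaa1* -0.095, *Prkab2* -0.030 and *Prkag1* 0.035 (mitochondrial share), and *Prkaa1* -0.057 and *Prkag1* 0.0073 (long-gene share). With each heart left out in turn, between 0 and 3 genes were called in the peptide study, with 3 without Abeta42_3452 and 1 without ScrAbeta42_3448. The β2 to β1 difference in the peptide study then ran from -0.066 to 0.053 and the γ2 to γ1 difference in the antibody study from -0.052 to 0.21, while the γ2 to γ1 difference in the peptide study ran from 0.45 to 0.95, the α2 to α1 difference from 0.041 to 0.18 (peptide) and from 0.23 to 0.51 (antibody), and the β2 to β1 difference in the antibody study from 0.049 to 0.22. Fold changes that crossed 0 ran, in the peptide study, from -0.095 to 0.015 (*Prkaa1*), -0.014 to 0.071 (*Prkab1*), -0.045 to 0.064 (*Prkab2*) and -0.0011 to 0.10 (*Prkag1*). In the antibody study they ran from -0.067 to 0.090 (*Prkaa1*), -0.077 to 0.014 (*Prkag1*), -0.11 to 0.17 (*Prkag2*), -0.036 to 0.092 (*Stk11*) and -0.047 to 0.046 (*Camkk2*). The log2 fold change of *Prkag2* in the peptide study ran from 0.61 to 1.31 and that of *Prkaa2* in the antibody study from 0.18 to 0.53. Others that 1 heart moved by over 1.5 times were *Prkaa2* (0.017 to 0.095), *Prkag3* (-0.49 to -0.22), *Stk11* (-0.086 to -0.019) and *Camkk2* (0.065 to 0.26) in the peptide study, and *Prkab1* (0.010 to 0.071) and *Prkab2* (0.081 to 0.24) in the antibody study. No paired analysis was run, since the groups compared share no mouse numbers and no label pairs them. In the antibody study, each control number stands next to a 3D6 number, as in 3 and 4 or 23 and 24. A block by such neighbours was not tested. The long-gene share also went with the number, at 17.7% or more in mice 3 to 15 and 16.7% or less in mice 16 to 24. *Prkag3* rests on 6 to 37 counts per heart, and the groups are of 7 or 8 hearts.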
